A study of Mus musculus with 2 samples.

Results

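The models described here are long-read transcript models of 2 or more exons at loci that the deposited tables give no annotated gene, in mouse gastrocnemius, the large calf muscle. They were chosen by the deposited novelty class, Antisense or Intergenic, by exon number and by position on chromosomes 1 to 19, and not by their read counts. Antisense is the class for models across from an annotated gene of the other strand, and Intergenic the class for models outside annotated genes. The positions depart from this in part: 10 antisense chains had no annotated gene on the other strand, and 55 intergenic chains touched one by exactly 1 base. The span of an annotated gene on their own strand was overlapped by 4 intergenic chains. Joined by chromosome, strand and intron chain (the ordered positions of all introns of a model), they made 1282 distinct chains out of 105597 spliced chains in the series. Of the 1282 chains, 899 were antisense, 380 were intergenic and 3 carried one class in the first library and the other class in the second. Another 20 models in replicate 1 and 21 in replicate 2 lay off these chromosomes and were left out.

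The series holds 1 group of 2 long-read RNA libraries, each from the gastrocnemius of a female B6CASTF1/J mouse of 2 months, the first-generation cross of the C57BL/6J and CAST/EiJ strains. Replicate 1 is animal 3 and replicate 2 is animal 4 by the labels, which give both the same donor identifier, so the spread between the libraries may be in part technical. No treatment or genotype is contrasted, and every test below compares these 2 libraries and not mice in general. Library totals were 1349298 reads in replicate 1 and 1359923 reads in replicate 2. Skeletal muscle markers took 124969 and 126296 CPM (counts per megaread) in replicates 1 and 2. Slow fibre markers took 985 and 7442 CPM, adipocyte markers 1127 and 107, and nerve and Schwann cell markers 668 and 96.3, each with 6 of 6 markers detected. Fewer cells of a type and less RNA per cell cannot be told apart in such tissue libraries, and the part of this difference in the values below was not tested.

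Mammalian genomes are transcribed well beyond their annotated genes. Many promoters fire in both directions, and the upstream transcripts are usually short-lived and poorly spliced, while some antisense transcripts are processed and reach the cytoplasm as long noncoding RNA. Introns removed by the major spliceosome begin with GT and end with AG on the transcribed strand, so the letters at an intron's ends tell which strand fits a spliced model. An intron placed on the wrong strand instead reads CT at its start and AC at its end.

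The letters at intron ends are shown first for chains on either side of this divide. They were read on the strand of the model from GENCODE M21 transcripts and RefSeq promoter sequences (GRCm38, the same assembly as mm10), wherever these covered the ends of the intron. Each pair below gives the bases around the intron start and then the intron end, 5′ to 3′, with the first 2 and the last 2 intron bases in capitals. The first chains are antisense to Nr2f2, which encodes the nuclear receptor COUP-TFII, and to Atp2a1, which encodes the fast-fibre calcium pump SERCA1. Their introns mirror annotated introns: both borders are exactly those of an annotated intron on the other strand.
Nr2f2 antisense, intron chr7:70354932-70357762, start: ccacaggcatCTggaagaaa
Nr2f2 antisense, intron chr7:70354932-70357762, end: tccttcctACctgaggtgaa
Nr2f2 antisense, intron chr7:70358291-70359887, start: ctctgtacagCTgcaggagg
Nr2f2 antisense, intron chr7:70358291-70359887, end: aggccgatACcttcccgtct
Atp2a1 antisense, intron chr7:126448383-126448536, start: catcccctgtCTgaagacgg
Atp2a1 antisense, intron chr7:126448383-126448536, end: gacttctcACcatggctgtg

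The next chains mirror no annotated intron. They lie antisense to Des, the intermediate filament protein desmin, to Dusp1, a phosphatase of MAP kinases, and to Ryr1, the calcium release channel of the sarcoplasmic reticulum. Each had member reads in 1 library only. In replicates 1 and 2 the Des chain had 1 and 0 reads, the Dusp1 chain 0 and 3, and the Ryr1 chain 1 and 0.
Des antisense, intron chr1:75367593-75367717, start: ggccatgcagGTttgtgctt
Des antisense, intron chr1:75367593-75367717, end: tcctctccAGctcctcaccc
Dusp1 antisense, intron chr17:26506568-26507047, start: tcctcatgagGTaagcaagg
Dusp1 antisense, intron chr17:26506568-26507047, end: tcctccacAGggatgctctt
Ryr1 antisense, intron chr7:29124430-29124752, start: catcacccagGTaccctcag
Ryr1 antisense, intron chr7:29124430-29124752, end: cttatgtcAGgagagggcgt

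The last examples are shown for the repeat at their borders. In the chain antisense to Smg1, a kinase of nonsense-mediated decay, at least 15 bases of identical sequence stand at both ends of the 64-base intron, and in the chain antisense to the chaperone cofactor St13 it is at least 16 bases around a 196-base intron. At most 10 bases were compared on each side of a border. With such a repeat the position of the intron can slide along the identical bases.
Smg1 antisense, intron chr7:118205045-118205108, start: agatggctagGTtggtaaag
Smg1 antisense, intron chr7:118205045-118205108, end: aggaagctAGgttggtaaag
St13 antisense, intron chr15:81384249-81384444, start: acataaaaagGCttccaaga
St13 antisense, intron chr15:81384249-81384444, end: aaaaaaaaAGgcttccaaga

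The 2 kinds of antisense chain carried opposite letters. Of the 1909 distinct member introns on the chromosomes read, 80 could be read, all from antisense chains, and 0 of the 640 intergenic introns. In all, 55 of the 80 (68.8%) had GT at the start and AG at the end, 3 had GC and AG, and 19 (23.8%) had CT and AC. Of the readable introns that mirror an annotated intron, 18 of 18 had CT and AC, the reverse complement of the usual pair, which follows from sharing the borders of an intron of the other strand. Of the readable introns that mirror none, 55 of 62 (88.7%) had GT and AG and 1 had CT and AC. Annotated introns of Known models, those that match an annotated transcript, had GT and AG in 98.6% of 10382 readable cases. Unannotated introns of the NNC class (models with a splice site not in the annotation) had them in 89.0% of 6772. Unannotated introns of the Genomic class, TALON's class for models within a gene that share none of its splice junctions, had them in 78.9% of 194. Neither class is limited to annotated genes. The unannotated genes of the members held 129 further NNC and 112 further Genomic models in replicate 1, spliced or not. In replicate 2 they held 97 and 227. Readable introns lie by construction in or beside annotated exons, so these shares do not stand for the introns that could not be read.

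**Figure D1:**
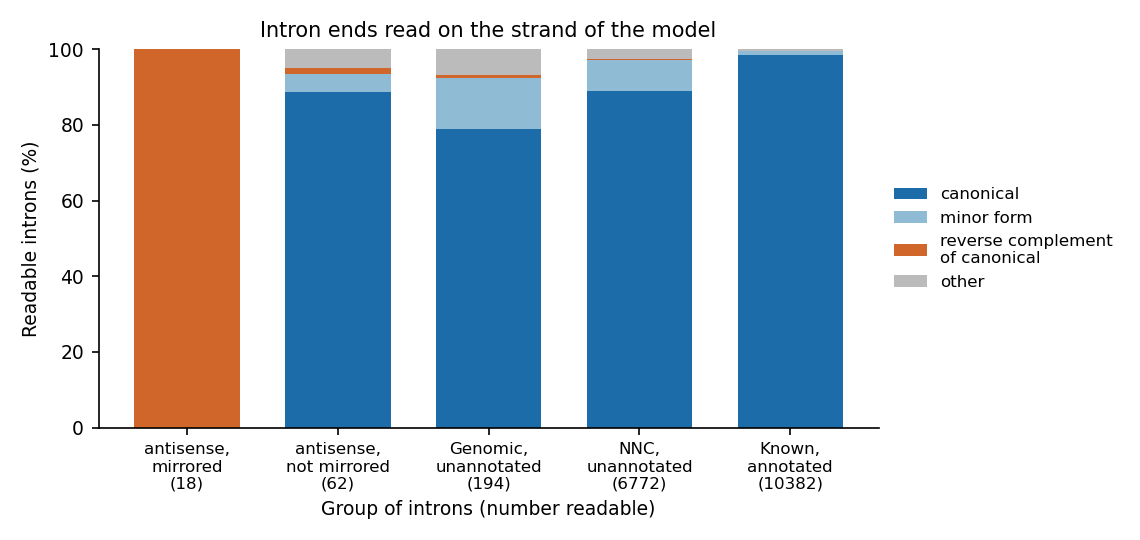
Share of readable introns (%) by the letters at their ends, read on the strand of the model, for 5 groups of introns with the number readable under each bar; canonical is GT at the start and AG at the end, and the minor form is GC and AG. All 18 mirrored antisense introns carried the reverse complement of the canonical pair, and 55 of 62 that mirror no annotated intron carried the canonical pair.

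The chains held few reads. Member models numbered 619 with 865 reads in replicate 1 and 753 with 1110 reads in replicate 2. That was 0.0641% of all reads in replicate 1 (95% Wilson interval 0.0600 to 0.0685) and 0.0816% in replicate 2 (0.0770 to 0.0866), a mean of 0.0729% ± 0.0124 (SD, n = 2). The intervals do not overlap. They cover counting error only, as reads without molecular identifiers need not be separate molecules, and a chain with no read in a library may have up to 3 reads' worth of abundance there. A single read supported 1052 of the 1282 chains (82.1%), against 61.4% of all spliced chains. It was nearly the same in the Genomic class (81.3%) and the NNC class (79.4%). Antisense chains with a mirrored intron took 122 CPM in replicate 1 (104 to 142) and 220 in replicate 2 (196 to 246). Those with none took 309 (281 to 340) and 369 (338 to 403). Without the largest mirrored chain, antisense to Mbnl1, the mirrored chains of replicate 2 took 187 CPM (165 to 211). With the reads of these chains under every class counted, Mbnl1 included, they took 132 CPM in replicate 1 (114 to 153) and 303 in replicate 2 (275 to 334). Antisense models of a single exon, which are not members, took 10921 and 28167 CPM, also more in replicate 2, and their part in the difference was not tested.

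Chains at unannotated loci were simple in structure. Of the 1282, 845 (65.9%) had 2 exons, against 6.56% of all spliced chains, and the median was 2 exons against 9. The Genomic class shared this structure, with 2 exons in 511 of 652 chains (78.4%) and a median of 2. The median member model was 1832 bases long, against 1948 in the Genomic class and 2579 over all spliced chains. Only 75 chains (5.85%) had 5 or more exons. The longest chain had 17 exons on chr13:83261096-83504034, minus strand, and a single read, in replicate 1. It begins at an annotated start of Mef2c, a muscle transcription factor, runs away from it, and overlaps the RefSeq noncoding gene Gm33217. Next came a chain of 13 exons within Fggy, a carbohydrate kinase gene, that overlaps none of its exons, and one of 10 exons leading away from 1700067G17Rik, each with 1 read. Intergenic chains had 5 or more exons in 33 of 380 cases (8.68%), and antisense chains in 41 of 899 (4.56%).

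Member introns were widely spread in length. The median was 1537 bases, against 1320 bases over introns of Known models, and 44 of 1980 (2.22%) were over 50000 bases, against 1.04% of introns of Known models. At the short end 24 (1.21%) were under 50 bases, against 2 of 108814 introns of Known models (0.00184%), 76 of 122132 of the NNC class (0.0622%) and 25 of 855 of the Genomic class (2.92%). None of the 288 introns in mirrored antisense chains was that short, the shortest being 78 bases. A mirrored intron has the borders of an annotated intron by definition, so this absence was nearly fixed in advance. Of the 24 chains with such an intron, 6 (25.0%) were seen in both libraries, against 7.02% of all member chains. These shares are not matched for reads, and a chain with a single read cannot be in both. The 24 chains held 15 and 44 reads in replicates 1 and 2, and all 1282 chains held 865 and 1110. The 6 seen in both lie in or beside Aff1, Phkb, Vps54, Zbtb16, Jph1 and Zkscan3, with introns of 37, 39, 42, 36, 33 and 34 bases, and each has 2 exons.

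**Figure D2:**
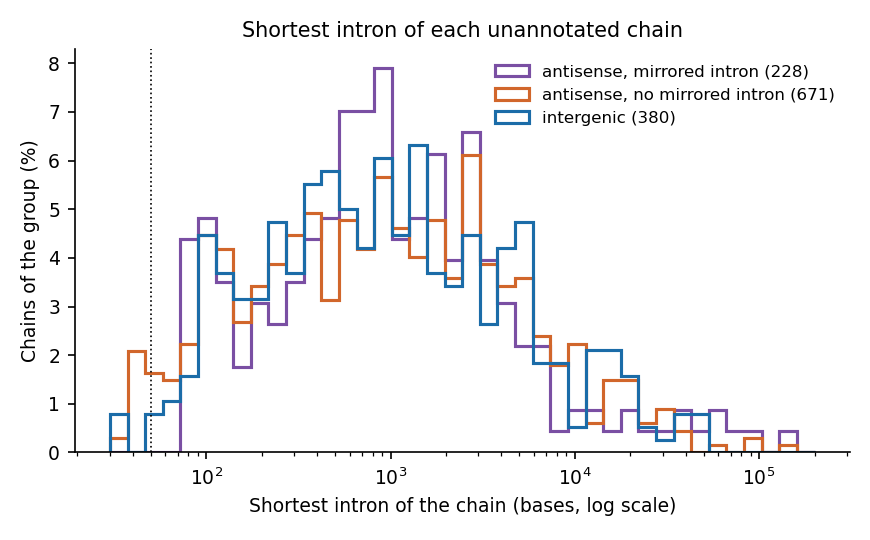
Histogram of the shortest intron of each chain in bases (log axis) as a percent of the chains of each group: 228 antisense chains with a mirrored intron, 671 antisense chains with none and 380 intergenic chains; the dotted line stands at 50 bases. The mirrored chains have no intron left of the line, where 19 antisense and 5 intergenic chains lie. That absence largely follows from how mirrored introns are defined.

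Few chains were seen in both libraries. By the same intron chain and a member class in each, 90 of 1282 (7.02%) were, and these held 23.7% of all member reads. With the class likewise required in each library, the share was 8.44% of Genomic and 11.2% of NNC chains. Among chains with a member row in 1 library, 70 had the same intron chain in the other under another class, which raises the count to 160 of 1282 (12.5%). The share over all spliced chains, also joined over every class, was 29.8%. In each library every unannotated gene held at most 1 member model, and its further models carried other classes, 318 models in replicate 1 and 426 in replicate 2. By overlap of loci on the same strand, 202 of 1166 loci (17.3%) had a member chain in both libraries, and 433 (37.1%) had a member chain in one and some model, spliced or not, in the other.

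Recurrence followed read support. With every class counted, 56 of 129 chains with 2 reads in all (43.4%) were in both libraries. With 3 to 4 reads it was 49 of 70, with 5 to 9 reads 27 of 28 (96.4%) and with 10 or more 28 of 28. Over all spliced chains, also joined over classes, the shares were 45.9%, 77.2%, 94.8% and 99.8% at the same read counts. If a member class was required in each library and only reads of member rows were summed, the shares were 37 of 125 (29.6%), 25 of 63 (39.7%), 14 of 23 (60.9%) and 14 of 19 (73.7%). These shares are a description with no test.

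**Figure D3:**
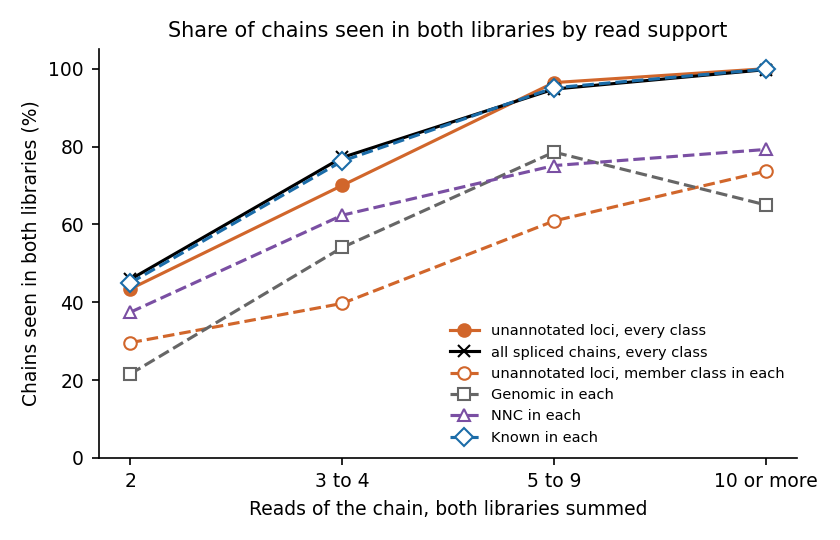
Share of chains seen in both libraries (%) against the chain's reads summed over both libraries; solid lines join a chain over every class (unannotated loci and all spliced chains), and dashed lines require the class in each library (unannotated loci, Genomic, NNC and Known). With every class counted the members ran at 56 of 129, 49 of 70, 27 of 28 and 28 of 28 chains, and with a member class required at 29.6%, 39.7%, 60.9% and 73.7%.

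Most antisense chains lay within a protein-coding gene of the other strand. Of 899, 889 had a host, defined as the annotated gene of the other strand with the largest exonic overlap or, with none, the largest overlap of spans, and 811 (90.2%) lay on a protein-coding host. The chain lay inside its host in 652 cases (72.5%), ran past the host's start in 130 (14.5%), began beyond the host's end in 85 (9.45%) and spanned the host in 22. It overlapped exons of the host by over 1 base in 579 cases (64.4%), with a median overlap of 391 bases or 22.2% of the model, by exactly 1 base in 56, and only introns in 254. The 889 chains fell on 773 hosts, of which 672 held 1 chain.

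Mirrored introns marked a distinct subset. At least 1 intron had exactly the borders of an annotated intron of the other strand in 228 of 899 antisense chains (25.4%), and every intron did in 218. Of these 218, 188 had 2 exons and 30 had 3 or more, up to 7. The host strand usually held more reads with the same run of introns: the median was 40 sense reads over both libraries against a median of 1 antisense read. In 22 of the 218 (10.1%) no sense read held those introns, and in 26 (11.9%) sense reads were fewer than antisense reads.

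Crebbp was the clearest of those exceptions. It encodes a histone acetyltransferase that serves as a coactivator for many transcription factors. The chain on its other strand, chr16:4128444-4213997 on the plus strand, had 6 exons whose 5 introns all mirror Crebbp introns, and it had 9 reads in replicate 1 and 15 in replicate 2, the most of any antisense chain with a member row in both. Crebbp itself had 8 sense reads in each library, and the same run of 5 introns was held by 1 sense read in replicate 1 and 0 in replicate 2. Reads of this structure assigned to the antisense strand were therefore more numerous than those assigned to the sense strand in each library. The letters of these 5 introns could not be read. The readable mirrored introns, 18 of 18, had CT and AC on the strand of the model. Whether the assigned strand is the transcribed one was not tested.

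Other mirrored chains among the 10 antisense chains with the most reads differed in their balance with the sense strand. The Nr2f2 chain, 3 exons on chr7:70353993-70360593, had 5 and 10 reads in replicates 1 and 2, against 6 and 9 sense reads with the same 2 introns. The chain across from Lyrm4, a protein of mitochondrial iron-sulphur cluster assembly, had 7 and 6 reads against 5 and 11 sense reads. That across from the splicing factor gene Prpf38b had 3 and 9 reads against 8 and 2. A chain with host Gm42615, an annotated gene with 0 sense reads in each library, mirrored an intron of Ppargc1a, the coactivator known for its role in mitochondrial biogenesis, and had 2 and 10 reads against 15 and 29 sense reads. The Atp2a1 chain stood at the other end: 2 and 11 antisense reads faced 200234 and 193616 sense reads over the same intron.

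The other chains described from the top 10 mirror no annotated intron. Within Aff1, which encodes a scaffold of the super elongation complex, a chain with a 37-base intron had 5 and 14 reads, while Aff1 had 6 and 9 sense reads. Within the noncoding gene Lncpint, which had 0 sense reads in each library, a chain with a 53-base intron had 6 and 13 reads. A chain of 16254 intron bases inside AC118724.1, also at 0 sense reads, had 6 and 5 reads.

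**Figure D4:**
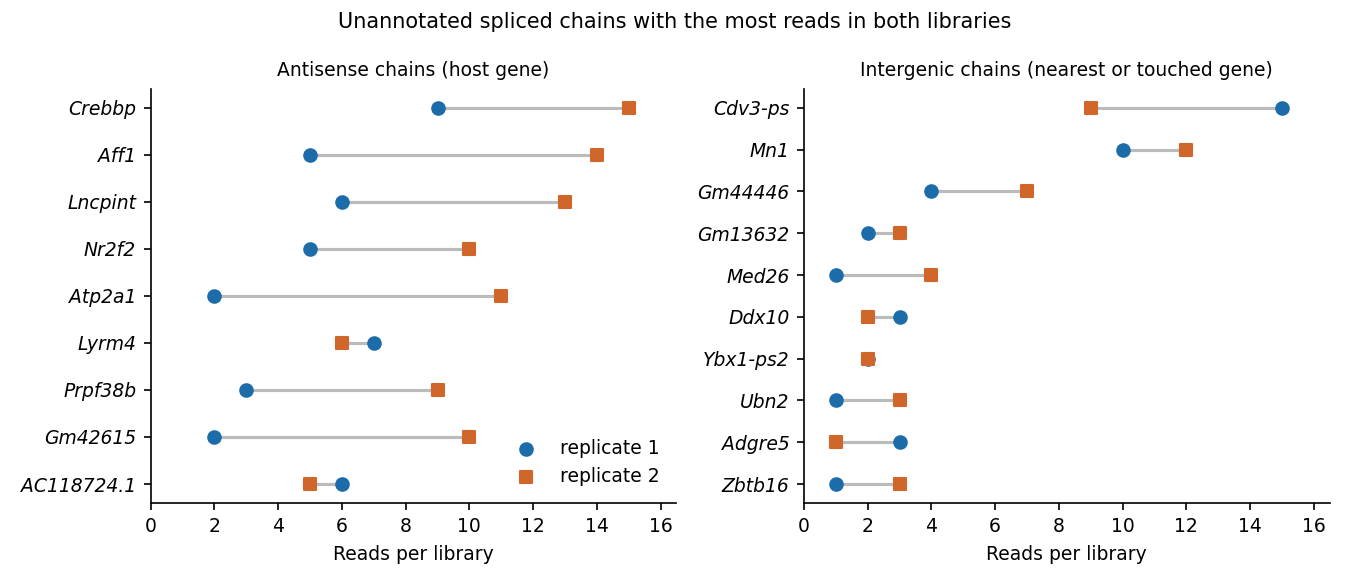
Reads in replicate 1 (circles) and replicate 2 (squares) for 9 of the 10 antisense chains and the 10 intergenic chains with the most reads among those with a member row in both libraries, named by host gene or, for intergenic chains, by the gene touched or nearest; the grey line joins the libraries. Antisense counts run from 2 to 15 reads and intergenic counts from 1 to 15.

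Hosts were expressed somewhat above the typical gene. Their median was 32 sense reads over both libraries, against 18 over the 14885 annotated genes with a read on these chromosomes, and 96 of the 773 hosts had 0 sense reads. The share of genes that host a chain was 2.32% at 1 to 9 sense reads, 5.22% from 10 to below 100, 7.40% from 100 to below 1000 and 10.1% from 1000 to below 10000. It was 1 of 22 genes (4.55%) at 10000 or more, that gene being Atp2a1. For mirrored chains the shares were 0.481%, 1.53%, 2.48% and 5.70% over the first 4 steps and 4.55% at the last. For chains that mirror no intron they were 1.86%, 3.84%, 5.26% and 4.82%, and 0 of 22 at the last. From 1000 to below 10000 sense reads mirrored chains thus had at least as many hosts as the others, 13 against 11. The steps are a description with no test.

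**Figure D5:**
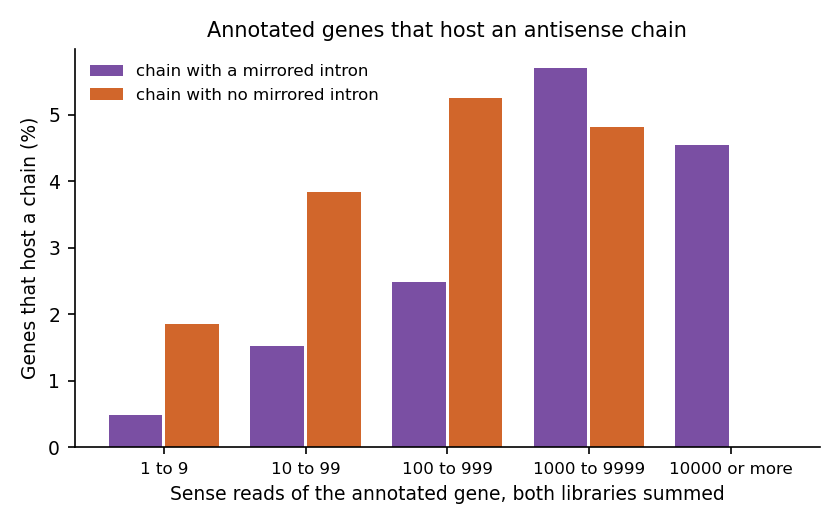
Share of annotated genes (%) that host an antisense chain with a mirrored intron or one with none, by the sense reads of the gene over both libraries. The mirrored share runs from 0.481% at 1 to 9 reads to 5.70% from 1000 to below 10000 reads, and the last step holds 22 genes.

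Some hosts carried several chains. Dapk2, a calmodulin-regulated kinase gene, Neb, which encodes the thin-filament ruler nebulin, and Klf13, a zinc-finger factor gene, held 4 chains each. The 4 Neb chains had 3 and 7 reads in all in replicates 1 and 2 beside 196 and 225 sense reads of the gene, and 3 of them mirror a Neb intron. None of the 4 Dapk2 or the 4 Klf13 chains did. Aff1 and Dusp13, a dual-specificity phosphatase gene, held 3 chains each and came next by reads. Among the leading hosts by member reads were Mbnl1 with 1 and 45, Crebbp with 9 and 15, Aff1 with 5 and 16, and Lncpint with 6 and 13.

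The genes of the contractile apparatus were hosts in part. Of 40 thin and thick filament and Z-disc genes 9 were hosts, of 14 chains, and 8 of the 14 were mirrored. Over all genes the host share ran from 2.32% at 1 to 9 sense reads to 10.1% from 1000 to below 10000. The list was not matched for sense reads or tested against these shares. Tnnt3, fast troponin T, had the chain with the most reads on member rows, 3 and 4 in replicates 1 and 2 against 1265 and 1310 sense reads over the same 91-base intron. Ldb3, a Z-disc protein gene, had 5 reads in replicate 1 under the Antisense class, and the same intron chain had 14 in replicate 2 under the Genomic class. Ttn, the giant spring protein titin, had 3 chains of 1 read each, all with a mirrored intron.

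Among calcium handling genes 2 of 19 were hosts, Atp2a1 with 2 chains and Ryr1 with 2. A chain with a 33-base intron near Jph1, a junctional membrane protein gene, had 1 and 2 reads in replicates 1 and 2. Of 17 glycolysis and energy genes the hosts were Pygm, muscle glycogen phosphorylase, with 0 and 2 reads, and Pfkm, muscle phosphofructokinase, with 0 and 1. Of 15 genes of oxidative metabolism 1 was a host, Lpl, lipoprotein lipase, with 0 and 1 reads. None of 9 sarcomeric myosin heavy chain genes, of 18 myogenic regulators and growth genes or of 13 matrix genes hosted an antisense chain. Of 39 Hox genes 2 did, Hoxc9 and Hoxd10, with 1 read each in replicate 2. On the myogenic list, Mef2c and Mef2d were nearest to 2 intergenic chains, with 0 and 2 reads in replicates 1 and 2. The intergenic chain of 17 exons begins at a start of Mef2c. At the host shares over all genes, lists this small can lack a host, and no list was tested. A chain of 4 exons 15507 bases upstream of Myh2 on the same strand had 1 read in each library.

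The intergenic chains were divided between those near a gene and those away from one. Of 380, 174 (45.8%) had an annotated gene that they do not overlap within 10 kb, and for 86 (22.6%) the nearest such gene lay on the same strand, upstream of the chain in 46 cases and downstream in 40. The nearest gene within 10 kb was convergent in 52 cases and divergent in 36. The 55 that touched an annotated gene of the other strand by 1 base led away from that gene's start in 52 cases, and 26 of the 55 were also among the 174. In all, 205 (53.9%) touched a gene of the other strand, overlapped one of their own strand or had another within 10 kb. The median gap to the nearest gene not overlapped was 12042.5 bases, and 8435.5 bases with touched or overlapped genes taken at a gap of 0.

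The intergenic chain with the most reads had a 57-base intron (chr14:43118776-43120234, minus strand), 702 bases from the pseudogene Cdv3-ps, and 15 and 9 reads in replicates 1 and 2. The next, 3 exons on chr5:111490919-111492383, lay 33885 bases beyond Mn1, a transcriptional co-regulator gene, on the same strand, with 10 and 12 reads, and overlaps the RefSeq noncoding gene Gm36149. A chain of 3 exons on chr6:14608313-14611916 overlaps the RefSeq noncoding gene Gm38768 and had 4 and 7 reads. All 3 were seen in each library at like counts.

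The other 7 of the top 10 had 4 or 5 reads in all. Med26, a Mediator subunit gene, and Adgre5, an adhesion receptor gene, each had a chain that begins at an annotated start and leads away from it, with 1 and 4 reads and with 3 and 1 reads in replicates 1 and 2. A chain 1146 bases upstream of Ubn2, a histone chaperone gene, had 1 and 3 reads. The others lay nearest to Gm13632, the helicase gene Ddx10, Ybx1-ps2 and the zinc-finger gene Zbtb16. Of the 3 chains with one class per library, that near Mef2c, 59393 bases before the gene on the same strand, had 1 and 5 reads. That leading away from Lbx1, a homeobox gene of migrating limb muscle precursors, had 3 and 3 reads. The third, of 5 exons near Gm10605, had 1 read in each.

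Among chains in both libraries the longest were short beside those of a single read. After Crebbp with 6 exons came 5-exon chains running out past the start of Itga4, an integrin gene, and near Gm10605, and 4-exon chains within Vwa3b and near Gm5165. These 4 had between 2 and 4 reads in all. No locus held more than 2 distinct member chains, with 1 member model per gene in each library, and 116 loci held 2. Of intergenic loci with 2, the one near Itga11, an integrin gene, had the most reads, 14 and 5 in replicates 1 and 2.

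Chains often began at or near the start of a gene of the other strand. In all, 245 of 1282 (19.1%) began within 500 bases of an annotated transcript start of the other strand, and 163 (12.7%) began at exactly that base. Whether that base is where the reads began cannot be told from the deposited models, and the distances under 500 bases carry this limit. Of 228 mirrored chains 9 (3.95%) began exactly at such a start, while 50 (21.9%) ended exactly at one and 49 (21.5%) began exactly at an annotated end of the other strand.

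The promoters where chains began were rich in CpG. RefSeq promoter windows, 250 bases before to 50 bases after a gene's start, held 69 member starts on the other strand in 72 windows. These windows had a median of 24.5 CpG and 63.5% GC, against 7 and 53.0% over all 31365 windows. GGGCGG, the box bound by Sp1, was found on either strand in 58.3% of them against 36.0% of all windows, and TATAAA in 5.56% against 13.6%. The 31365 windows were not limited to genes with reads, so these contrasts are not matched for expression. Whether they are particular to promoters where chains begin was not tested. A match describes the letters only. The 250 bases before the gene start are printed here for a CpG-rich and a CpG-poor example, on the strand of the gene, with each CG in capitals. Tpp2 encodes a large cytosolic peptidase, and a 2-exon chain on its other strand began 13 bases inside the gene and had 4 and 3 reads in replicates 1 and 2. Klhl41 encodes a muscle protein that stabilises thin filaments, and a 2-exon chain began exactly at its start, with 6 and 5 reads, in replicate 2 under the NNC class.
Tpp2 promoter, chr1:43933744-43933993, plus strand: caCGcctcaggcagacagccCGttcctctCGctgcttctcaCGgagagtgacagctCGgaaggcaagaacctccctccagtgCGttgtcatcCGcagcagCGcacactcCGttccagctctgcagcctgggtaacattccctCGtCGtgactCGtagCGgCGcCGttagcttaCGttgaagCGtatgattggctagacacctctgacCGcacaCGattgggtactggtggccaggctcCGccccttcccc
Klhl41 promoter, chr2:69669870-69670119, plus strand: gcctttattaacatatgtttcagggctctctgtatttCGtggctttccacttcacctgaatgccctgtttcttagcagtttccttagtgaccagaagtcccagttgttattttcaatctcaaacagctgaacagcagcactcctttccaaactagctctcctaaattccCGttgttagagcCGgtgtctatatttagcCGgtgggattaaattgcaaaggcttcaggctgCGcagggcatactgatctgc

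Some chains overlap a gene of a second annotation. In all, 34 chains (2.65%) overlapped the span of a GENCODE M21 gene on their own strand. This low share follows from the choice of members, whose classes rest on GENCODE M21. The span of a RefSeq gene of GRCm38 on their own strand was overlapped by 243 of the 1282, 211 of them noncoding and 32 protein-coding. Spans include introns, and no background share of such overlap was taken. The RefSeq share was 27.1% of intergenic and 15.6% of antisense chains. Among the 90 chains in both libraries it was 17.

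Reads of a chain over every class were compared between the libraries with a two-sided Fisher's exact test against all other reads, adjusted by Benjamini-Hochberg over the 12137 spliced chains with at least 10 reads. Of these 5.64% were called at an adjusted p under 0.05, 2.89% higher and 2.74% lower in replicate 2. Among the 28 members tested 2 were called (7.14%), both higher in replicate 2 and none lower, a share close to that of all chains. Unadjusted, 5 of the 28 had a p under 0.05. The median log2 ratio of replicate 2 over replicate 1 was 0.61 over the 28 members and -0.01 over all chains tested.

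Both called chains mirror an intron of their host. Mbnl1 encodes a splicing regulator that drives the adult splicing pattern of muscle. Its antisense chain, with an intron of 65789 bases on chr3:60529549-60599578, had 45 reads in replicate 2 and 10 in replicate 1, 4.46-fold higher (95% interval 2.28 to 8.75, adjusted p = 1.09e-04 by Fisher's exact test). The 10 reads in replicate 1 were under another class, so on member rows the counts were 0 in replicate 1 and 45 in replicate 2. Sense reads with the same intron numbered 46 in replicate 2 and 10 in replicate 1, so the strands held nearly the same counts in each library. Ubl3 encodes a membrane-anchored ubiquitin-like protein. Its antisense chain, with an intron of 39950 bases on chr5:148511894-148552050, had 47 reads in replicate 2 and 9 in replicate 1, 5.18-fold higher (2.58 to 10.4, adjusted p = 1.65e-05 by the same test). The 47 reads in replicate 2 were under another class. On member rows the direction was the reverse, with 9 reads in replicate 1 and 0 in replicate 2. Sense reads with that intron numbered 254 in replicate 2 and 297 in replicate 1, so here only the antisense count over every class was the higher in replicate 2.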

How the data were processed

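As deposited, each table gives counts, the number of long reads the authors assigned to each transcript model, with its novelty class, exon number and length, and no normalization. Per the labels, the libraries were made from 2 µg of RNA. Per the submitters' processing notes, reads were placed on mm10 with GENCODE M21. The source field of the deposited annotation names TALON. For the aligner, its version and the filters on reads, nothing is given in the sources used here. Exon positions from the deposited annotation, in bases, gave each model's intron chain, and exon numbers matched the tables for every model.

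The members and lists were chosen with earlier results of these data known. Named were the 10 antisense and 10 intergenic chains with the most reads in both libraries, the 5 joined chains with the most exons, every called chain, the hosts and loci leading by chains or reads, and up to 4 genes of each host list. Chains named outside that rule, the very short introns in both libraries, those of most exons overall and the printed sequences, were picked after their values were seen. The result of 1 antisense chain that the rule names is not reported here.

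Hosts and neighbours came from GENCODE M21 (Python 3.11.15, pandas 2.3.3). RefSeq strands came from its promoter table. With no genome sequence used, intron letters were read from GENCODE M21 transcripts and RefSeq GRCm38 promoters, in place of the planned genome. No sequence of 1 chromosome was read. These are reference letters, not those of the CAST/EiJ allele. Fisher's exact test used scipy 1.17.1. Intervals are Wilson intervals at 95% and the floor of a count of 0 is 3 counts. Alternative sizes came from edgeR 4.0.16 and DESeq2 1.42.0. The test was tested on simulated data. Each model's counts carry no replicate error beyond the 2 libraries.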

Additional observations from a re-analysis of the deposited data

How the results depend on the processing

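No paired analysis was possible because the series has 1 group and no groups to pair. Of 8 results and 41 alternatives, 24 stayed within the spread between libraries, or within 1.5 times for a count, and 17 moved. Of the 29 alternatives that use both libraries, 15 stayed and 14 moved. For the share of reads the main value is the mean of the 2 libraries, so leaving out either one stays by construction. The cause was not tested where the construction of the alternative does not give it. With at least 2 reads summed, 230 chains were left, with 0.0340% of reads, 33.3% of antisense chains mirrored, 28.2% of intergenic chains with a same-strand neighbour within 10 kb and 73.5% of chains with 2 exons. Leaving out each library in turn gave 619 to 753 chains, 0.0641% to 0.0816% of reads, 20.5% to 29.8% mirrored, 22.0% to 24.8% with a same-strand neighbour, 62.8% to 69.7% with 2 exons and 57.1% to 79.1% of readable introns with GT and AG. The share of chains in both libraries was 14.7% by at least 1 identical intron, 17.3% by overlap of loci, 66.7% with at least 5 reads and, added after seeing the data, 12.5% with every class counted. A same-strand neighbour was found for 13.4% within 5 kb and 47.6% within 50 kb. The other additions made after seeing the data gave 39.4% mirrored among chains with over 1 base of host exon overlap and 88.7% GT and AG among introns that mirror none. Fisher's exact test called 2 members at every threshold and scaling planned, with at least 20 reads 2 of 8 beside 722 of 7939 chains, and edgeR's exact test at a dispersion of 0.01 called 2 of 28 beside 210 of 12137. Counting only the members' own rows called 5 of 19 beside 687 of 12128, as a change of class then reads as an absence. Most chains have a single read, which limits every comparison of the libraries.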
